A study of Arabidopsis thaliana with 16 samples.

Results

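The brm-3dog1-4 double mutant of Arabidopsis thaliana was compared with its wild type, the Col-0 accession, in mature dry seeds. All 4 libraries labelled as the double mutant and all 4 labelled Col-0 were taken, 8 of the 16 libraries of the series, and every one of the 37336 locus identifiers counted in them was considered. The double mutant was made by crossing brm-3, a T-DNA insertion line whose BRM protein lacks the bromodomain, with dog1-4, an insertion line of DOG1. Both single mutants, 4 libraries each, stand beside the double mutant below only where their values help to read it. Plants of all 4 genotypes were grown in a greenhouse under long days, and the RNA came from whole dry seeds, so embryo, endosperm and seed coat were mixed in each library.

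DELAY OF GERMINATION 1 (DOG1) is the best known dormancy gene of Arabidopsis. Its protein accumulates while the seed matures and binds the phosphatases AHG1 and PP2CA (AHG3), which otherwise damp the response to abscisic acid (ABA), the hormone that holds a seed dormant. BRAHMA (BRM) is the ATPase of one class of SWI/SNF complexes, which use ATP to move or evict nucleosomes and so change which genes can be transcribed. A dry seed makes almost no new RNA, so its transcripts are those stored during late maturation, when genes for storage proteins, oil body proteins and late embryogenesis abundant (LEA) proteins, which protect dried cells, are at their height. Gibberellins (GA), the hormones that oppose ABA, promote germination.

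Transcripts were counted by 3′RNA-Seq, which reads the polyadenylated end of each RNA, so a count does not grow with transcript length. The Col-0 libraries held 1467125 to 2273515 counts and the double mutant libraries 977878 to 2359673, and replicate 3 of the double mutant was the shallowest. Levels are given as counts per 1000000 (CPM) of a library size scaled by the trimmed mean of M values (TMM), and 3 counts in a library correspond to 1.51 to 2.44 CPM in Col-0 and 0.964 to 2.63 CPM in the double mutant. After the filter on low counts 10251 genes were tested with edgeR's quasi-likelihood test, and every adjusted p below is from that test with Benjamini-Hochberg adjustment over those genes. On the first principal component, which held 69.0% of the variance of the 8 libraries, the 4 double mutant libraries stood apart from the 4 Col-0 libraries. The second held 7.49%, and Col-0 replicate 2 lay farthest from the other libraries on it. In these bulk samples fewer cells of a type and less RNA per cell cannot be told apart.

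Of the markers for cell types, storage and late maturation genes of the embryo were among the most abundant transcripts in both genotypes. The summed level of 11 embryo and dry seed markers was 109883 to 155302 CPM in Col-0 and 73047 to 97101 CPM in the double mutant, and 7 of the 11 were lower while 1 was higher, where 23.3% and 22.8% of all tested genes were. That fall rests on the TMM scale: as a share of all counts these markers took 10.1 to 12.6% in Col-0 and 9.64 to 12.2% in the double mutant, which overlap. Of 3 endosperm markers 2 were tested and 1 of them, MFT, was higher, and the sum spanned 22715 to 24309 CPM in Col-0 and 19931 to 24281 CPM in the double mutant, or 1.84 to 2.17% and 2.43 to 3.20% of all counts. Seed coat markers, of which BAN and TT12 had no count in any of the 8 libraries, summed to 123 to 132 CPM in Col-0 and 168 to 234 CPM in the double mutant, nearly all of it SBT1.7. The 6 leaf markers summed to 8.95 to 16.1 CPM in Col-0 and 74.5 to 122 CPM in the double mutant. RBCS1A and GLDP1 carried that rise and RBCS2B had no count in any of the 8 libraries. The root markers were at or near 0 throughout. The part that the make-up of the seed plays in the results below was not tested.

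The mutated genes were read first. DOG1 (AT5G45830) stood at 102, 101, 117 and 80.4 CPM in the Col-0 libraries and at 0.83, 3.21, 4.38 and 4.19 CPM in the double mutant, a log2 fold change of -5.03 ± 0.21 (standard error of the fit) with an adjusted p of 8.91e-29. All 4 double mutant libraries thus matched the dog1-4 label, and their mean of 3.15 CPM was close to the 3.52 CPM of the dog1-4 single mutant, with a difference between them of -0.28 on the log2 scale and an adjusted p of 0.684. Whether the counting used the strand is not given in the sources used here, so transcripts antisense to DOG1 cannot be separated from DOG1 in these values. BRM (AT2G46020) stood at 33.3, 28.5, 19.3 and 30.9 CPM in Col-0 and at 10.4, 12.5, 18.4 and 9.63 CPM in the double mutant. Its log2 fold change was -1.24 ± 0.21 with an adjusted p of 2.09e-06, and the groups did not overlap, although replicate 3 of each came close to the other. The brm-3 insertion leaves a transcript behind, and BRM was at 11.8 CPM in the brm-3 single mutant.

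A gene was called where its adjusted p was below 0.05 and its level changed more than 2-fold. In the double mutant 1073 genes, 10.5% of those tested, were higher than in Col-0 and 795, or 7.76%, were lower. With no limit on the fold, 2335 (22.8%) were higher and 2392 (23.3%) lower. For 39.8% of all tested genes the 4 and 4 libraries did not overlap, and this held for 976 of the 1073 genes called higher and 740 of the 795 called lower. The increases reached further than the decreases: 117 genes rose and 34 fell by more than 3 on the log2 scale. The genes called higher were mostly rare in Col-0, with a median of 5.32 CPM there and 17.0 CPM in the double mutant, whereas those called lower had a median of 43.4 CPM in Col-0 and 15.2 CPM in the double mutant. In the fifth of genes with the lowest levels 20.2% were called higher and 5.90% lower, and in the fifth with the highest levels 5.12% and 14.6%.

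**Figure D1:**
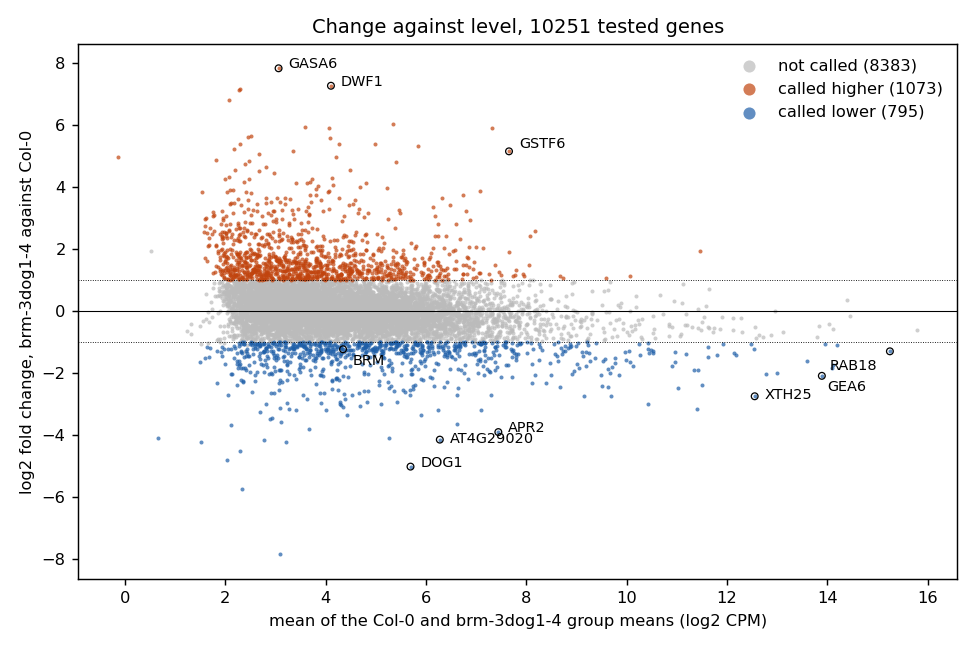
Log2 fold change of brm-3dog1-4 against Col-0 (y axis) against the mean level of the 2 groups in log2 CPM (x axis), 1 point per tested gene, with the 1073 genes called higher in red, the 795 called lower in blue and dotted lines at a 2-fold change. Most points called higher lie at low levels, and of the 50 most abundant genes of Col-0 all but CRA1 lie below 0, RAB18 and GEA6 among them.

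The make-up of the libraries also differed between the genotypes, and the scale on which changes are read depends on it. The 50 most abundant genes of each library took 50.8 to 54.5% of the counts in Col-0 and 40.5 to 45.4% in the double mutant, and the genes needed to reach 50% of all counts numbered 37 to 48 in Col-0 but 73 to 116 in the double mutant. Both measures separated the groups fully, with a two-sided exact permutation p of 0.0286, the smallest that 4 against 4 can give. Of the 50 most abundant genes of Col-0, 42 were lower in the double mutant, 24 of them more than 2-fold, and 1 was higher. Among all tested genes 23.3% were lower, 7.76% lower by more than 2-fold and 22.8% higher. The 50 were picked by their level in Col-0, which is itself part of the comparison. TMM scaling sets the bulk of genes to no change, and the median log2 change over all tested genes was 0.01. When libraries were scaled by their totals alone, that median became 0.58 and 91.2% of the calls were increases, against 57.4% with TMM. Directions below are relative to the bulk of genes, and named genes that turn when only the totals are used are listed below. Counts of higher and lower members of a list rest on the TMM scale too. Further list medians turned beside those given below. Among them were ABA synthesis and breakdown (-0.46 to 0.11), GA signalling (-0.11 to 0.46) and cell wall loosening (-0.39 to 0.18).

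Against the single mutants the double mutant differed in fewer genes: 1204 were called against brm-3 (11.7%) and 779 against dog1-4 (7.6%). Against the same 4 Col-0 libraries 311 genes (3.03%) were called in brm-3 and 640 (6.24%) in dog1-4. The 1073 genes called higher in the double mutant had a median log2 change against Col-0 of 1.5 there, 0.57 in brm-3 and 0.86 in dog1-4, and the 795 called lower had medians of -1.35, -0.37 and -0.57. These medians share their Col-0 libraries and are given side by side only.

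Among the largest increases was GASA6 (AT1G74670), a GA-induced gene for a small cysteine-rich peptide that promotes germination. It had no count in any Col-0 library and 19.1, 17, 14 and 16.7 CPM in the double mutant. Taken against the floor of 3 counts per library it was at least 8.06-fold higher (adjusted p 1.04e-14), and it was also higher than in brm-3 (1.08 CPM) and in dog1-4 (2.38 CPM). AGP31, CLA1, COL5 and MRD1 were the other genes called higher with no count in Col-0; they are named because of that count and were chosen after their values were seen. The mean of MRD1 in the double mutant, 1.83 CPM, was below the Col-0 floor of 2.07 CPM, so no fold is given for it. ELIP1, an early light-induced protein gene, was the reverse case, with a mean of 16.9 CPM in Col-0 and no count in the double mutant, at least 11.1-fold lower.

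DWF1 (AT3G19820), which encodes a sterol reductase needed to make brassinosteroids, had 1 count in the 4 Col-0 libraries together and 34.8, 51.4, 13.1 and 37.7 CPM in the double mutant. The ratio of the summed counts was 232, with a 95% counting interval of 41.3 to 9172, and the adjusted p was 1.24e-08. In each single mutant DWF1 was near 3 CPM, and the double mutant was higher than brm-3 by 3.70 and than dog1-4 by 3.77 on the log2 scale. The small dehydrin gene AT1G54410 rose from 1.51, 1.63, 0 and 1.29 CPM to 83.3, 77.7, 70.1 and 91.3 CPM, with a ratio of 70.2 (33.9 to 175) and an adjusted p of 3.77e-28. Among dehydrins, which are made as seeds dry, it moved opposite to the abundant members described below. GA20OX3 (AT5G07200), an enzyme of GA synthesis, had 0.505, 0, 0 and 1.29 CPM in Col-0 and 30.7, 39.5, 22.8 and 38.9 CPM in the double mutant, a ratio of 69.9 (23.7 to 341) with an adjusted p of 1.17e-19. It was already at 21.1 CPM in dog1-4 and at 2.43 CPM in brm-3. The ERF-type transcription factor gene ESE3 was at 0, 0, 0 and 1.29 CPM in Col-0 and at 24.9, 29.2, 17.5 and 23.9 CPM in the double mutant, a ratio of 75.6 (20.7 to 628).

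The glutathione S-transferase genes GSTF6 and GSTF7 lie close together and are near-identical, so the split of reads between them is uncertain. GSTF6 went from 7.07, 25.2, 5.63 and 9.64 CPM to 392, 614, 135 and 424 CPM, a log2 change of 5.14 ± 0.55 (adjusted p 3.86e-06). GSTF7 went from 4.04, 10.6, 1.61 and 5.79 CPM to 312, 555, 77.1 and 302 CPM, a log2 change of 5.89 ± 0.74 (adjusted p 1.79e-05). In both genes replicate 3 of the double mutant was the lowest of its group and still above every Col-0 library. Their means in dog1-4, 10.2 and 2.61 CPM, were not higher than in Col-0, while brm-3 had 71.5 and 47.3 CPM. The other 6 of the 12 largest increases among genes with at least 20 counts on average and no overlap of the groups were CCL, STR18 (a sulfurtransferase), AT5G11420, AT5G55620, AT5G20950 (a glycosyl hydrolase) and AT3G45310 (a cysteine proteinase), with log2 changes of 4.96 to 5.57.

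Among genes with at least 20 counts on average and no overlap of the groups, the largest decrease after DOG1 was that of AT4G29020, a glycine-rich protein gene, which fell from 157, 134, 138 and 156 CPM to 7.87, 6.10, 14 and 7.95 CPM. Its log2 change was -4.16 ± 0.16 (adjusted p 2.17e-30), against -1.66 in brm-3 and -1.33 in dog1-4. CYP76C2, a cytochrome P450 gene, fell from 73.7, 76.5, 83.6 and 57.2 CPM to 1.24, 5.46, 6.13 and 4.19 CPM (log2 -4.12 ± 0.32, adjusted p 2.16e-09). APR2, the main adenylylsulfate reductase of sulfate assimilation, fell from 281, 378, 318 and 325 CPM to 29.0, 14.1, 28.0 and 18.8 CPM (log2 -3.91 ± 0.15, adjusted p 3.13e-23). In each of these genes the highest double mutant library was far below the lowest Col-0 library. GATA19, a GATA-type transcription factor gene, fell from 179, 170, 186 and 190 CPM to 10.4, 12.2, 22.8 and 15.9 CPM (log2 -3.67 ± 0.14, adjusted p 2.12e-30). The remaining 7 of the 12, with log2 changes of -3.81 to -3.17, were AT3G22492, DIP2, KCS4 (very long chain fatty acid synthesis), AT2G34740 (a type 2C protein phosphatase), AT2G38900 (a protease inhibitor), AT1G72120 (a transporter of the major facilitator superfamily) and the LEA gene AT4G36600.

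**Figure D2:**
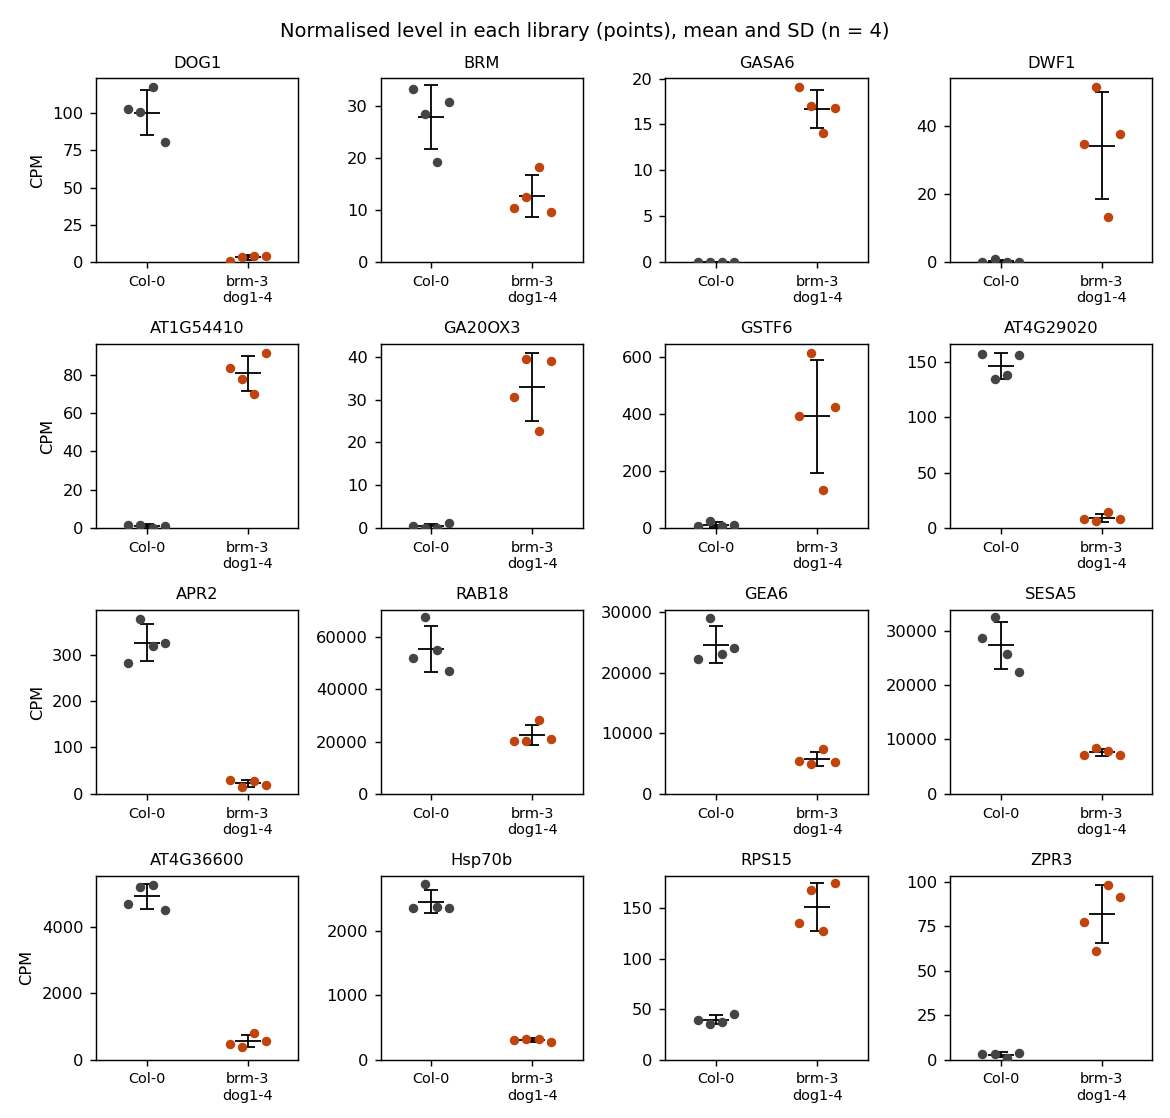
CPM of 16 genes in the 4 Col-0 libraries (grey) and the 4 brm-3dog1-4 libraries (red), each point 1 library, with the mean and SD (n = 4) in black and a separate linear y axis from 0 in each panel. In none of the 16 panels do the groups overlap; the nearest values are those of BRM, at 19.3 CPM in Col-0 and 18.4 CPM in the double mutant.

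Of 15 tested regulators of dormancy 8 (53.3%) were lower and 4 (26.7%) higher in the double mutant, against 23.3% and 22.8% of all tested genes. Their median log2 change was -0.48 (0.08 when libraries were scaled by totals). The mutated gene DOG1 is itself 1 of the 8 and enters the median. The list does not separate genes that promote dormancy from those that oppose it. AHG1, the phosphatase that DOG1 binds, fell from 562, 511, 573 and 543 CPM to 202, 208, 209 and 221 CPM, a log2 change of -1.38 ± 0.09 (adjusted p 7.41e-20). PP2CA, its other phosphatase partner, changed by -0.48 ± 0.11 (adjusted p 1.65e-04), and that sign turned under scaling by totals. RDO5 (AT4G11040), a phosphatase-like protein that promotes dormancy, rose from 104, 85.4, 76.4 and 82.9 CPM to 233, 214, 269 and 263 CPM (log2 1.47 ± 0.11, adjusted p 3.46e-17). MFT, which modulates ABA signalling in the seed, rose by 1.02 ± 0.13, and PIF1 (listed as PIL5), which represses germination in the dark, by 1.41 ± 0.20.

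The AFP proteins bind ABI5, the bZIP factor that carries ABA signals in seeds, and lower its activity. AFP1 fell from 32.3, 26.9, 25.7 and 34.1 CPM to 5.39, 5.14, 7.01 and 4.19 CPM (log2 -2.52 ± 0.22, adjusted p 4.06e-15), and AFP2, AFP3 and TMAC2 changed by -1.23, -2.67 and -1.19, with adjusted p of 0.0036 or less. For AHG1, RDO5, MFT, PIF1, AFP1 and AFP2 the dog1-4 single mutant had a log2 change within 0.3 of the double mutant's, and brm-3 had one within 0.4 of 0. SOM, a CCCH zinc finger gene that holds seeds from germinating in the dark, changed by -0.60 ± 0.09, with -0.39 in brm-3 and -0.26 in dog1-4. HUB1, RVE1 and RVE2 did not pass the test.

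Of the listed regulators of seed maturation, 6 of 10 tested were higher and 3 lower (22.8% and 23.3% of all tested genes were). The list does not separate activators from repressors. EEL, a bZIP factor of the ABI5 family, rose from 62.6, 46.4, 44.2 and 66.2 CPM to 209, 283, 184 and 224 CPM, a log2 change of 2.02 ± 0.12 (adjusted p 1.96e-21), with 0.97 in brm-3 and 0.82 in dog1-4. ABI4, an AP2-type factor of ABA and sugar responses, had 0, 0.814, 0.804 and 1.29 CPM in Col-0 and 9.53, 13.5, 7.01 and 9.63 CPM in the double mutant, a ratio of 15.9 (6.02 to 59.6). It was higher than in brm-3 and than in dog1-4 by 2.34 and 2.63 on the log2 scale. ABI5 itself fell from 560, 440, 493 and 534 CPM to 238, 215, 270 and 239 CPM (log2 -1.09 ± 0.10, adjusted p 4.89e-14). HSFA9, the heat shock factor of maturing seeds, fell from 395, 372, 339 and 371 CPM to 140, 105, 192 and 145 CPM (log2 -1.38 ± 0.11, adjusted p 8.20e-16), with -0.46 in brm-3 and -0.54 in dog1-4. ABI3, a master regulator of maturation, stood at 105, 105, 109 and 96.4 CPM in Col-0 and at 132, 138, 141 and 167 CPM in the double mutant, a smaller rise of 0.48 ± 0.11 (adjusted p 1.37e-04). The bZIP factors BZIP25 and BZIP53, partners on storage protein promoters, moved apart, by 1.01 ± 0.18 and -0.95 ± 0.15, and FUS3 did not pass the test.

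For ABA itself, ABA1, which encodes zeaxanthin epoxidase at the start of its synthesis, fell by 1.34 ± 0.10 on the log2 scale (adjusted p 2.00e-17) from 249, 208, 219 and 246 CPM to 94.9, 82.9, 108 and 85 CPM. CYP707A2, the main ABA breakdown enzyme of imbibed seeds, changed by -0.59 ± 0.20 (adjusted p 0.0107). ABA4 rose from 6 summed counts in Col-0 to 66 in the double mutant, a ratio of 7.30 (3.18 to 20.6). ABA receptors and phosphatases were split: of 19 tested genes of the core ABA pathway 8 were higher and 8 lower, 42.1% each way against 22.8% and 23.3% of all tested genes. Their median log2 change was -0.48 (0.08 under scaling by totals). The receptor PYL12 fell from 41.9, 30.9, 38.6 and 33.4 CPM to 4.56, 2.89, 9.64 and 5.86 CPM, a log2 change of -2.84 ± 0.24 (adjusted p 1.70e-15), whereas the receptor PYL8 (listed as RCAR3) had 8 summed counts in Col-0 and 82 in the double mutant, a ratio of 6.80 (3.29 to 16.3). Of the phosphatases that act against ABA, ABI1 and HAI3 rose by 1.3 ± 0.19 and 1.23 ± 0.18, ABI2 and HAI1 fell by 1.34 ± 0.12 and 2.09 ± 0.28, and HAB2 did not pass the test. The kinases SNRK2.2 and SNRK2.3 rose by 0.43 ± 0.11 and 0.63 ± 0.11.

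PYL12 lies 4 genes from DOG1 on chromosome 5. PYL11, its close paralog beside it, changed by -0.91 ± 0.39 and did not pass the test (adjusted p 0.0727), and the split of reads between such copies is uncertain. Of the 20 annotated genes on each side of DOG1 11 were tested, 2 were higher and 6 lower, 5 of those more than 2-fold. Their median log2 change was -0.91. Of all tested genes 22.8% were higher and 23.3% lower, and 7.76% were lower by more than 2-fold. Beside PYL12 the genes called lower there were AT5G45690, AT5G45720, MEE62 and AT5G45880, and RABA1c and AT5G45775 were called higher. Around BRM on chromosome 2, 17 of 40 neighbours were tested, with 5 higher and 1 lower, against the same 22.8% and 23.3%, and a median of 0.46. Any part of the chromosome segments carried along with the insertions was not tested.

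GA genes showed fewer tested members but some of the largest changes. GA2OX6, which inactivates GA, had 10.1, 4.07, 8.04 and 9.64 CPM in Col-0 and 0.414, 0.321, 0 and 0 CPM in the double mutant, 37.7 times less in summed counts (9.90 to 320, adjusted p 4.94e-09), beside the gain of GA20OX3 described above. Both changes were also present in dog1-4, with fitted log2 changes of -4.11 and 5.16. KAO2, a step of GA synthesis, changed by -0.70 ± 0.16. The DELLA repressors of GA signalling RGL2 and GAI rose: RGL2 went from 3.53, 4.07, 3.22 and 5.79 CPM to 16.6, 23.8, 14.9 and 21.8 CPM (log2 2.24 ± 0.29, adjusted p 2.91e-09) and GAI changed by 1.43 ± 0.22, while RGL3 changed by -1.18 ± 0.19. GASA2 and GASA3, abundant seed members of the GASA6 family, fell by 1.63 ± 0.12 and 1.80 ± 0.10. The receptor GID1C did not pass the test, and for GID1A the change of -0.25 turned to 0.33 under scaling by totals.

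**Figure D3:**
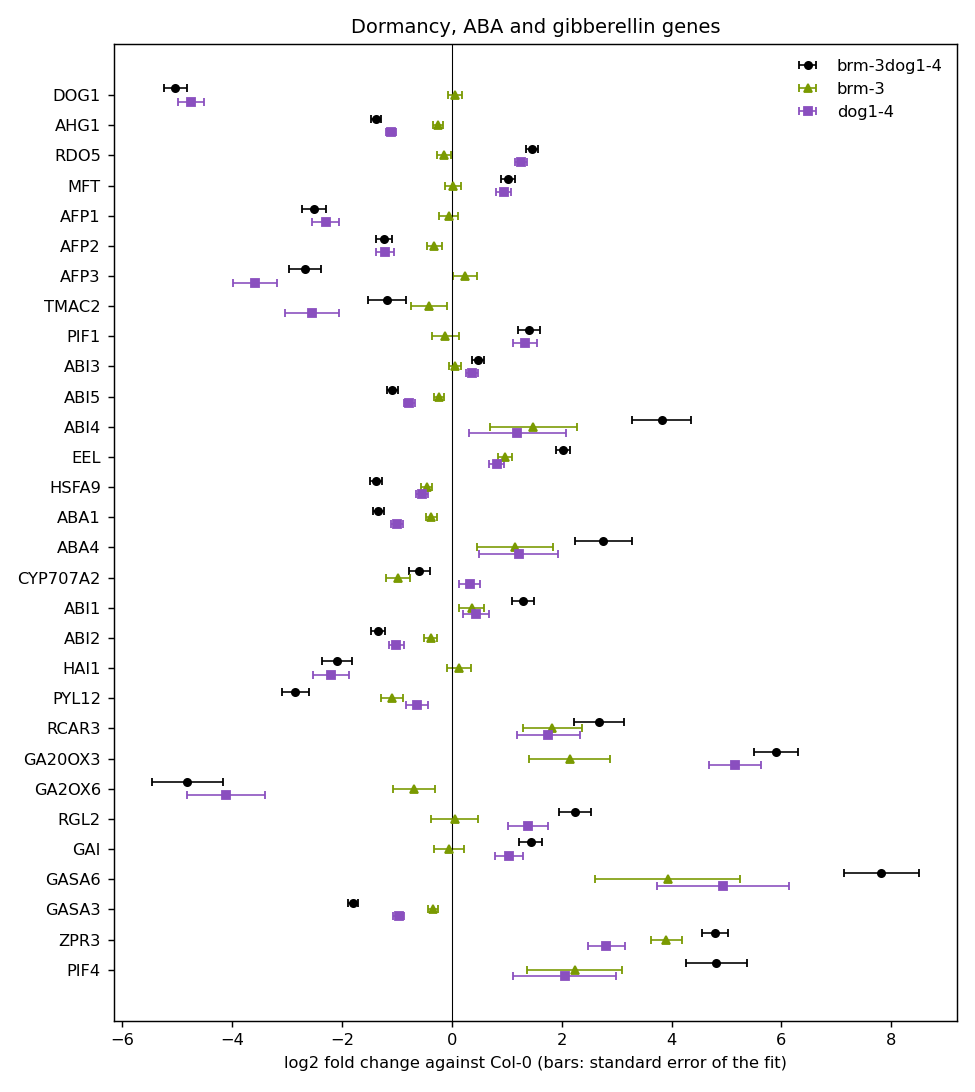
Log2 fold change against Col-0 (x axis) of 30 dormancy, ABA, GA and seed regulators in brm-3dog1-4 (black), brm-3 (green) and dog1-4 (purple), with bars for the standard error of the fit. DOG1, AFP1, RDO5 and PIF1 lie close together in brm-3dog1-4 and dog1-4, whereas EEL, HSFA9 and PYL12 lie farther from 0 in brm-3dog1-4 than in either single mutant.

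LEA proteins and dehydrins, stored as transcripts during late maturation, were mostly lower. Of 39 tested genes for LEA proteins and dehydrins 27 (69.2%) were lower, 12 of them (30.8% of the list) more than 2-fold, and 5 (12.8%) higher, against 23.3%, 7.76% and 22.8% of all tested genes, with a median log2 change of -0.62, -0.18 in dog1-4 and 0.13 in brm-3. The median in the double mutant was -0.07 when libraries were scaled by totals. RAB18 (AT5G66400), an ABA-induced dehydrin and the second most abundant transcript of Col-0 seeds, fell from 51882, 67882, 55108 and 47061 CPM to 20115, 20147, 28115 and 21193 CPM (log2 -1.31 ± 0.14, adjusted p 8.45e-12). GEA6 (AT2G40170, also EM6), a group 1 LEA protein, fell from 22251, 29129, 23075 and 24178 CPM to 5468, 4936, 7346 and 5255 CPM (log2 -2.10 ± 0.13, adjusted p 2.04e-21). M17 (AT2G41260), a further late maturation transcript, fell from 3620, 6216, 4614 and 5129 CPM to 800, 1343, 665 and 855 CPM (log2 -2.41 ± 0.26), and at 1056 CPM in dog1-4 it did not pass the test against the double mutant (adjusted p 0.619). The largest fall in the list was that of AT4G36600, from 4676, 5185, 5248 and 4504 CPM to 465, 383, 803 and 549 CPM (log2 -3.17 ± 0.15, adjusted p 2.18e-18), with 0.01 in brm-3 and -1.57 in dog1-4. The 5 higher members included AT1G54410 above and ERD14, both rare in Col-0, and ERD14 changed by 3.74 ± 0.46.

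Promoters of RAB18, GEA6 and the albumin gene SESA5 are shown because ABA-regulated seed genes carry ABA response elements (ABRE) there. Each run is the 200 bases before the annotated transcription start in RefSeq's TAIR10.1 assembly, 5′ to 3′ on the minus strand on which all 3 genes lie. Capitals mark the ABRE core ACGTG, read on either strand, and the RY element CATGCA.
RAB18, chr5:26519448-26519647: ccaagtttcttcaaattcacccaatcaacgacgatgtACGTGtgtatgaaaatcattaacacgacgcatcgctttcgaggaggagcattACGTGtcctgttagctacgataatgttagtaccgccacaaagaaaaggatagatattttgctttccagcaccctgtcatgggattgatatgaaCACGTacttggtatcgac
GEA6, chr2:16780369-16780568: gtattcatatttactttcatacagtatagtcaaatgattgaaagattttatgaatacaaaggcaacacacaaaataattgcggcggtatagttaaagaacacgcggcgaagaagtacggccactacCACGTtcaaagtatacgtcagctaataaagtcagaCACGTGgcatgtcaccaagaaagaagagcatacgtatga
SESA5, chr5:22239188-22239387: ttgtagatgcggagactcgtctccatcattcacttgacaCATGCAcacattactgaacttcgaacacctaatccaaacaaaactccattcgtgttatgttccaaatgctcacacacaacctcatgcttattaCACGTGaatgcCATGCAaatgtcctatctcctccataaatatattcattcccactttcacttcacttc
The RAB18 run holds 3 places with the ABRE core, the GEA6 run 2 and the SESA5 run 1 together with 2 RY elements.

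Storage protein genes did not move as 1 group. Of 9 tested, 4 (44.4%) were lower and 2 (22.2%) higher, against 23.3% and 22.8% of all tested genes, with a median of -0.49 (0.09 under scaling by totals), and their share of all counts, 8.87 to 11.8% in Col-0 and 8.91 to 11.1% in the double mutant, did not separate the genotypes (exact permutation p 0.543). SESA5 (AT5G54740), a seed storage albumin, fell from 28598, 32472, 25632 and 22328 CPM to 7049, 8406, 7832 and 7206 CPM (log2 -1.84 ± 0.14, adjusted p 2.08e-16), as it did in dog1-4 (-1.75) but not in brm-3 (0.14). PAP85, a vicilin, and CRU2, a cruciferin, fell by 1.12 ± 0.12 and 1.23 ± 0.15. SESA4 stood at 2534, 1133, 1806 and 890 CPM in Col-0 and at 2609, 2579, 3280 and 3133 CPM in the double mutant, a log2 change of 0.86 ± 0.28 (adjusted p 0.0207) that no longer passed without Col-0 replicate 2. The other gene counted as higher, CRA1, changed by 0.34 ± 0.14 and no longer passed without any 1 of 7 libraries, Col-0 replicates 1, 3 and 4 among them.

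Oil body proteins coat the droplets in which seeds store oil. Of 10 tested genes 7 (70.0%) were lower and 1 (10.0%) higher, against 23.3% and 22.8% of all tested genes. The 1 became 2 when Col-0 replicate 1 or any of several other libraries was left out. Their median log2 change was -0.55 (0.01 under scaling by totals). The share of all counts these genes took was 4.19 to 4.42% in Col-0 and 3.19 to 3.78% in the double mutant (exact permutation p 0.0286). The oleosin gene OLEO4 fell from 13477, 13922, 13407 and 11258 CPM to 2863, 2892, 4114 and 3150 CPM (log2 -2.0 ± 0.13, adjusted p 1.74e-20), with -0.42 in brm-3 and -0.48 in dog1-4. OLEO1 and OLEO2, the most abundant oleosins, changed by -0.59 ± 0.12 and -0.80 ± 0.12. Genes of oil synthesis went the other way, 6 of 10 higher and 1 lower, led by the acyl carrier proteins ACP2 and ACP3. Of 21 genes of oil breakdown 6 were higher and 4 lower, shares near the 22.8% and 23.3% of all tested genes. PCK1 and MFP2 changed by 0.64 and 0.63, while the malate synthase MLS changed by -0.53 and by 0.03 under scaling by totals.

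Heat shock proteins, which maturing seeds store without heat, were lower in 23 (33.8%) and higher in 9 (13.2%) of 68 tested genes, against 23.3% and 22.8% of all tested genes, with a median of -0.24 (0.33 under scaling by totals). Without Col-0 replicate 1 the 9 became 4. Hsp70b (AT1G16030), a cytosolic chaperone, fell from 2361, 2733, 2381 and 2360 CPM to 304, 326, 324 and 274 CPM (log2 -3.0 ± 0.12, adjusted p 1.50e-29), with -1.31 in each single mutant. The small heat shock proteins HSP17.4 and HSP17.6A fell by 1.90 ± 0.11 and 1.36 ± 0.11. Raffinose family sugars protect dry seeds and need myo-inositol, and MIPS2, which makes its precursor, fell from 1321, 1340, 1391 and 1309 CPM to 247, 226, 276 and 224 CPM (log2 -2.47 ± 0.10, adjusted p 1.03e-29). The galactinol synthase GolS2 fell by 1.22 ± 0.10 and the stachyose synthase STS rose by 2.22 ± 0.21, and in that list of 11 tested genes 6 were lower and 3 higher.

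Ribosomal protein genes were mostly higher. Of 209 tested genes with no organelle in their name 159 were higher, 93 of them more than 2-fold, and 4 lower, against 22.8% and 23.3% of all tested genes. The 4 became 2 without Col-0 replicate 1 or without replicate 2 of the double mutant. The median log2 change was 0.90 in the double mutant, 0.57 in dog1-4 and 0.06 in brm-3, and 168 of the genes were higher than in brm-3 and 97 higher than in dog1-4, where 18.5% and 12.1% of all tested genes were. Together these genes took 0.613 to 0.730% of all counts in Col-0 and 1.41 to 1.97% in the double mutant, a mean of 1.75% ± 0.236 (SD, n = 4) against 0.659% ± 0.0522, with replicate 3 the lowest of the mutant libraries (exact permutation p 0.0286). RPS15 (AT1G04270), of the small subunit, rose from 39.4, 35.8, 37 and 45.7 CPM to 136, 168, 127 and 175 CPM (log2 1.95 ± 0.13, adjusted p 4.24e-20). AT3G11510 rose from 12.6, 2.44, 9.65 and 7.72 CPM to 63.0, 71.6, 61.3 and 74.1 CPM (log2 2.98 ± 0.20, adjusted p 2.16e-19). Both stood between Col-0 and the double mutant in dog1-4, at 98.4 and 35.9 CPM. Many ribosomal proteins are encoded by several near-identical genes, and the split of counts between such copies is uncertain.

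The promoters of RPS15 and of AT5G15200, a gene of small subunit protein S4, are shown because ribosomal protein genes of plants often carry the telo-box (AAACCCTA) and site II elements (TGGGCC or TGGGCT). AT5G15200 was chosen after its values were seen, for its telo-box. It rose from 72.7, 69.2, 65.1 and 71.4 CPM to 166, 195, 146 and 193 CPM (log2 1.34 ± 0.11). The runs are again the 200 bases before the start in TAIR10.1, both on the minus strand and read 5′ to 3′, with capitals for the telo-box, site II elements and ABRE cores on either strand.
RPS15, chr1:1143131-1143330: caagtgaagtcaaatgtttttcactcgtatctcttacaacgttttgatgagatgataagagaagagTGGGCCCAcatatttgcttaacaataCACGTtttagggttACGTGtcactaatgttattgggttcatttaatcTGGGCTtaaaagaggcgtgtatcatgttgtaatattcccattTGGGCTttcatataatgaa
AT5G15200, chr5:4936430-4936629: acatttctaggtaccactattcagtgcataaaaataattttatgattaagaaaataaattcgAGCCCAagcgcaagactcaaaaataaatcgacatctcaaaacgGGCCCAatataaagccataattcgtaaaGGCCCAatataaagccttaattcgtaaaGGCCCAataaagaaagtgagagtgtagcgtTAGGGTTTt
The AT5G15200 run holds 1 telo-box and 4 places with a site II element, and the RPS15 run holds 3 places with site II and 2 ABRE cores.

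Other parts of the translation machinery had smaller medians. Of 50 organelle ribosomal proteins 19 (38.0%) were higher and 4 (8.0%) lower, against 22.8% and 23.3% of all tested genes, with a median of 0.47. Of 80 translation factors 25 (31.2%) were higher and 14 (17.5%) lower, closer to those shares of all genes, with AT5G60390, an elongation factor 1-alpha gene, at 1.13 ± 0.10. Of 36 nucleolar genes of ribosome assembly 12 were higher, among them FIB2, a fibrillarin, at 2.47 ± 0.43, and 3 lower, which became 1 without Col-0 replicate 1 or without replicate 2 of the double mutant. Counts of genes encoded in the organelle genomes took 0.466 to 0.537% in Col-0 and 0.780 to 1.20% in the double mutant. Both single mutants also stood above Col-0 here, at 0.772 to 1.22% in brm-3 and 0.664 to 1.04% in dog1-4. Of 35 proteasome subunits tested 2 (5.71%) were higher and 7 lower, against 22.8% and 23.3% of all tested genes. Their median log2 change of -0.005 (0.57 under scaling by totals) was near the 0.01 of all tested genes.

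**Figure D4:**
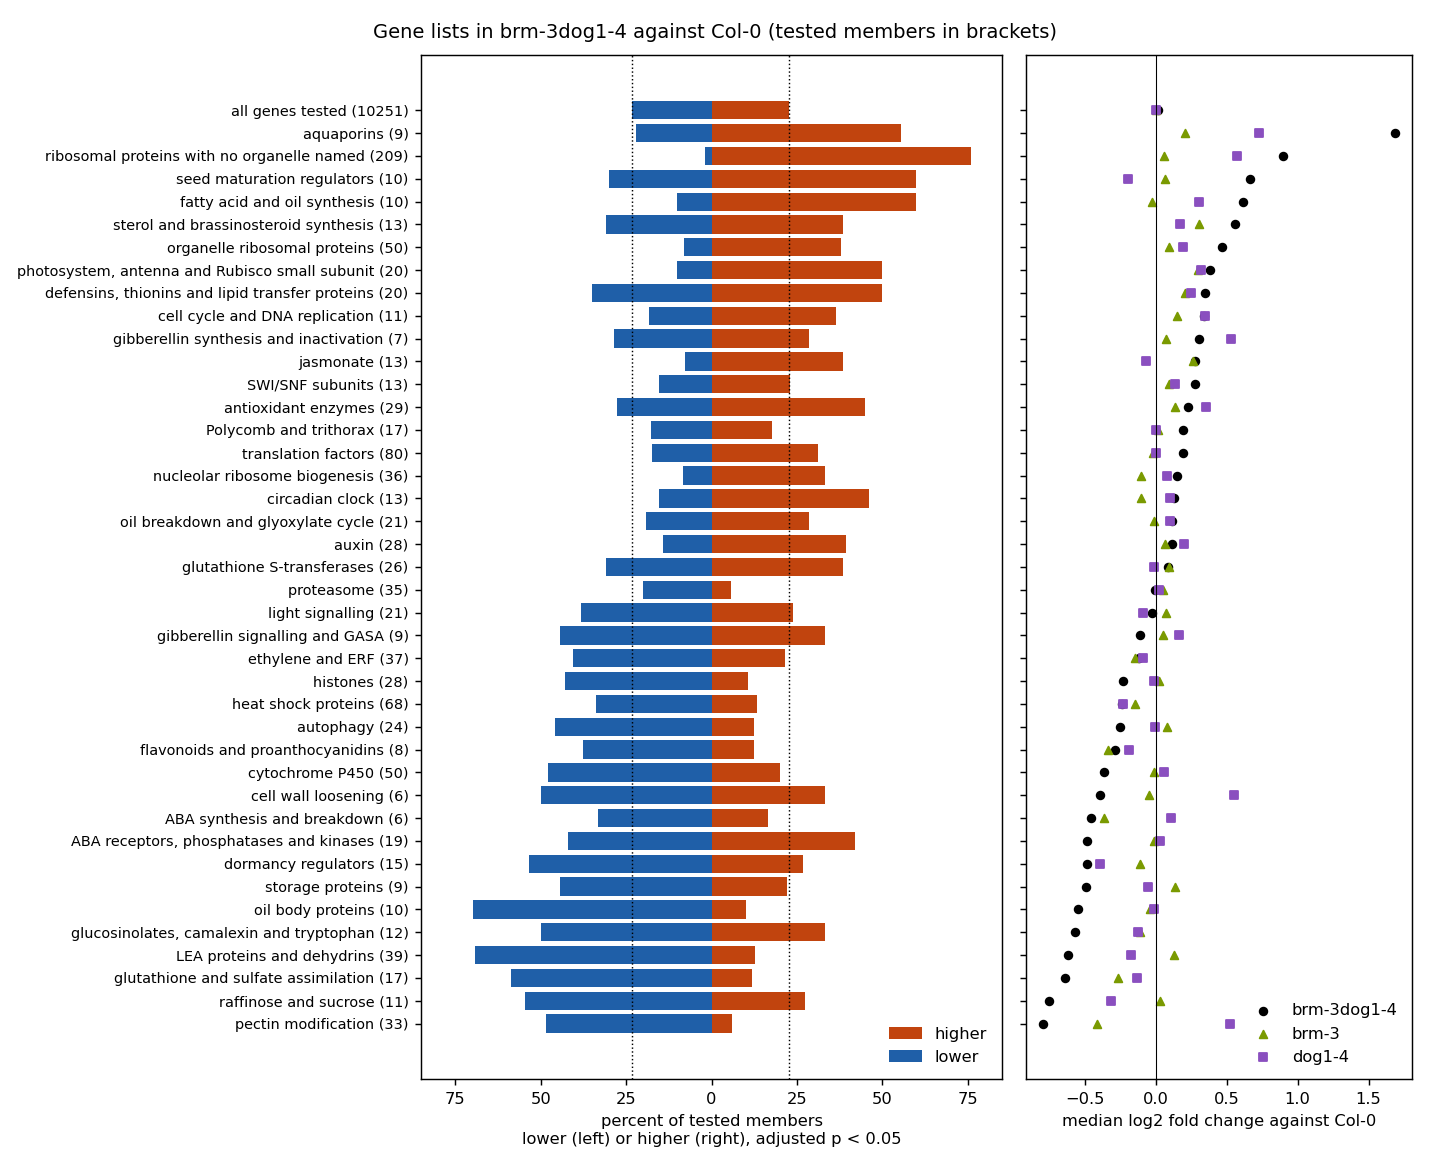
Left, percent of tested members of each gene list that were higher (red) or lower (blue) in brm-3dog1-4 at an adjusted p below 0.05, with dotted lines at the shares of all tested genes. Right, median log2 fold change against Col-0 of each list in brm-3dog1-4, brm-3 and dog1-4. Ribosomal proteins stand at 0.90 and LEA proteins at -0.62 in brm-3dog1-4. Medians of storage, oil body, dormancy, heat shock and both ABA lists, among others, turn to 0.01 or above when libraries are scaled by totals alone.

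Sulfate assimilation supplies the cysteine of glutathione, the main thiol antioxidant of seeds. Of 17 tested genes of both pathways 10 (58.8%) were lower, 7 of them more than 2-fold, and 2 (11.8%) were higher, against 23.3% and 22.8% of all tested genes, with a median of -0.64 (-0.08 under scaling by totals). SIR, the single sulfite reductase, fell from 298, 299, 306 and 264 CPM to 58.4, 53.0, 92.0 and 69.5 CPM (log2 -2.15 ± 0.11, adjusted p 2.04e-24), one step after APR2 in the pathway. The 2 that rose were the glutathione peroxidase genes GPX2 and GPX3, both below 5 CPM in every Col-0 library. Of 26 glutathione S-transferases 10 (38.5%) were higher and 8 (30.8%) lower, against 22.8% and 23.3% of all tested genes. GSTF6 and GSTF7 above and GSTU19 at 1.04 ± 0.10 were among the higher, and GSTU9 at -1.51 ± 0.16 among the lower. Of 29 antioxidant enzymes 13 (44.8%) were higher and 8 (27.6%) lower, against the same shares of all tested genes. The catalases moved apart, CAT2 (AT4G35090) by 0.67 ± 0.09 and CAT1 by -1.76 ± 0.12.

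Aquaporins and photosynthesis genes had more higher than lower members. Of 9 aquaporins tested 5 were higher (55.6%, against 22.8% of all tested genes), all more than 2-fold, and they were plasma membrane or vegetative members such as PIP2A, which went from 1.51, 4.07, 3.22 and 0.643 CPM to 31.1, 38.9, 21 and 34.3 CPM (log2 3.87 ± 0.30, adjusted p 7.52e-17). The seed-specific vacuolar aquaporins TIP3;1 and TIP3;2 (listed as BETA-TIP) fell by 1.07 ± 0.11 and 0.70 ± 0.14. RBCS1A, a Rubisco small subunit, rose from 7.07, 4.88, 12.1 and 10.9 CPM to 69.6, 96.4, 53.4 and 101 CPM (log2 3.24 ± 0.22, adjusted p 4.86e-14), and in the photosynthesis list 10 of 20 were higher and 2 lower. RBCS1A is itself one of the leaf markers given above, so their rise is not separate from this list. Apart from RBCS1A and GLDP1 the leaf markers had too few counts to be tested. The part of leaf cells in this list was not tested. ZPR3, a small leucine zipper protein that blocks class III HD-ZIP factors, rose from 3.03, 3.26, 0.804 and 3.86 CPM to 77.5, 61.0, 98.1 and 91.3 CPM (log2 4.79 ± 0.24, adjusted p 3.43e-24), with 3.91 in brm-3 and 2.81 in dog1-4. The HD-ZIP gene PHB rose too, from 7 summed counts to 64.

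Cell wall genes went both ways. XTH25 and TCH4, neighbouring genes of one enzyme family that cuts and rejoins xyloglucan, moved apart. XTH25, which is abundant in dry seeds, fell from 10415, 10914, 11213 and 9348 CPM to 1433, 1179, 2131 and 1457 CPM (log2 -2.76 ± 0.14, adjusted p 3.49e-21). TCH4 had 2 counts in Col-0, both in replicate 3, and 5.80, 28.6, 7.88 and 7.12 CPM in the double mutant, a ratio of 42.8 (11.6 to 357) with an adjusted p of 0.0041. Pectin-modifying enzymes were lower in 16 (48.5%) and higher in 2 of 33 tested genes, against 23.3% and 22.8% of all tested genes, with a median of -0.80 (-0.23 under scaling by totals), and without Col-0 replicate 4 the 16 became 10. In dog1-4 the same list had a median of 0.52, and 20 of its genes were lower in the double mutant than in dog1-4, against 15.4% of all tested genes.

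In other hormone pathways single genes changed strongly. IAA8, an auxin response repressor, rose from 3.53, 5.70, 2.41 and 3.21 CPM to 44.7, 47.9, 42.1 and 42.3 CPM (log2 3.58 ± 0.24, adjusted p 8.14e-20), while PIN4, an auxin exporter, had 5.55, 3.26, 8.04 and 5.14 CPM in Col-0 and 0.414, 0, 0 and 0.419 CPM in the double mutant, 24.9 times less (6.36 to 214). PIN4 stood at 0.149 CPM in brm-3 and at 7.25 CPM in dog1-4, where it did not pass the test against Col-0 (adjusted p 0.544). NIT2, a nitrilase, rose from 18.7, 30.1, 29.8 and 17.4 CPM to 111, 154, 92.9 and 124 CPM (log2 2.40 ± 0.21, adjusted p 2.90e-09), and its 141 CPM in brm-3 did not pass the test against the double mutant (adjusted p 0.350). RAP2.2, an ERF factor of the low-oxygen response, rose from 70.1, 88.7, 88.5 and 95.8 CPM to 486, 421, 399 and 509 CPM (log2 2.42 ± 0.11, adjusted p 2.20e-27). AT1G62510, a lipid transfer-like protein gene, was among the few abundant transcripts that rose, from 1119, 1234, 1166 and 1215 CPM to 4420, 4234, 4854 and 4443 CPM (log2 1.92 ± 0.11, adjusted p 1.66e-22), with 1.57 in brm-3 and 1.44 in dog1-4.

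Of 21 light receptors and their partners 5 (23.8%) were higher and 8 (38.1%) lower, against 22.8% and 23.3% of all tested genes. PHYA, the phytochrome of very low light, rose by 1.65 ± 0.14, whereas PHYD and PHYE changed by -1.19 ± 0.13 and -1.12 ± 0.16. PIF4, a growth-promoting bHLH factor, had 0.505, 0, 0 and 0.643 CPM in Col-0 and 10.8, 12.5, 6.13 and 13.8 CPM in the double mutant, a ratio of 34.8 (9.41 to 291, adjusted p 9.63e-11), and PIF7 fell by 2.31 ± 0.44. PIF4 was higher in the double mutant than in brm-3 and than in dog1-4, by 2.58 and 2.76 on the log2 scale. In the circadian clock list TOC1 and FKF1 rose by 1.15 ± 0.16 and 1.03 ± 0.21 and GI changed by -0.70 ± 0.16.

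Of 13 tested SWI/SNF subunits BRM and LFR were lower and SYD, ARP4 and ATCHR12 higher, and apart from BRM none was called. SYD, the ATPase of a sister class of complexes, changed by 0.76 ± 0.16 (adjusted p 4.99e-05), while LFR changed by -0.44 ± 0.16, which did not pass the test without Col-0 replicate 4, and by 0.12 under scaling by totals. Of 17 Polycomb and trithorax genes 3 were higher and 3 lower, 17.6% each way and below the 22.8% and 23.3% of all tested genes, with none past 2-fold. Of 28 tested histone genes 12 (42.9%) were lower and 3 (10.7%) higher, against 23.3% and 22.8% of all tested genes. The 3 became 1 without replicate 3 of the double mutant. Their list had a median of -0.23 (0.34 under scaling by totals). Past 2-fold 4 histone genes (14.3%) were lower, against 7.76% of all tested genes. They were AT1G08170, a histone H2B-type gene, which fell by 1.79 ± 0.12, and AT3G09480, AT3G27360 and AT3G53730, which were named after their values were seen.

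Motifs were counted in windows from 250 bases before to 50 bases after the start of each gene, on both strands. Among genes called lower the ABRE core ACGTG was present in 43.8% of promoters, against 29.2% of the 10181 promoters of tested genes and 30.0% of those called higher. The G-box CACGTG, which contains that core, was present in 20.4% of the lower, 10.7% of all and 9.19% of the higher, and the RY element in 13.0%, 7.46% and 8.90%. For the telo-box the order was reversed, with 2.52% of the lower, 6.52% of all and 9.38% of the higher. Site II was rarer among the lower, at 20.9%, than among all, at 31.1%, and stood at 29.8% among the higher. The W-box TTGACC or TTGACT and the heat shock element GAANNTTC stood within 1 percentage point of all genes in both directions. Of the 39 LEA genes tested 79.5% held the ABRE core, of the 209 ribosomal genes 77.0% held site II and 45.0% the telo-box, and of the 9 storage genes 88.9% held the RY element. These shares describe the windows, with no test.

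**Figure D5:**
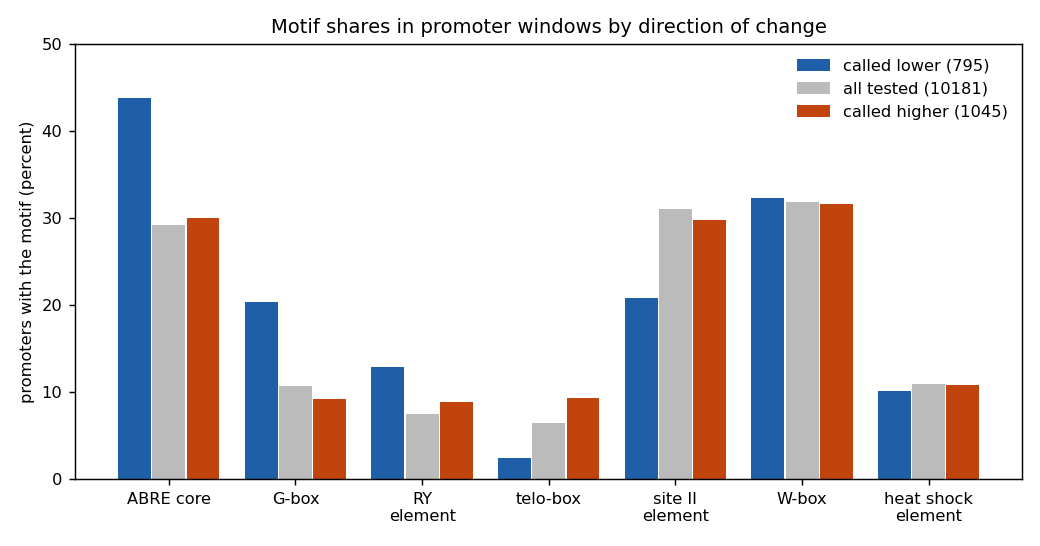
Percent of promoter windows (y axis) that hold each of 7 motifs (x axis) among genes called lower (blue), all tested genes (grey) and genes called higher (red). ABRE core, G-box and RY element are most frequent among genes called lower and the telo-box among genes called higher.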

How the data were processed

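The deposited values were whole counts per gene for 37336 identifiers in each library, which the authors made from 3′RNA-Seq reads; their processing notes name STAR 2.7.8a, DESeq2 and TAIR10. Counting settings are not given in the sources used here. All 16 libraries of 4 genotypes were fitted together with edgeR 4.0.16 (R 4.3.3): TMM, filterByExpr by genotype, robust quasi-likelihood test, 1 mean per genotype, Benjamini-Hochberg adjustment over 10251 genes. Calls needed an adjusted p below 0.05 and an absolute log2 fold change above 1; gene lists were counted at any fold. Nothing states that replicates came from separate harvests, so p-values measure the spread between these samples. In chi-square tests no 2 libraries of a genotype agreed within sampling noise (ratios to the degrees of freedom of 1.49 to 4.39).

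Names, neighbours and promoters came from RefSeq TAIR10.1. Named genes were DOG1 and BRM; the 12 largest changes each way (at least 20 counts on average, no overlap of groups); in each of 41 lists the 2 higher and 2 lower members with the smallest p; called genes among the 50 most abundant of Col-0; and members of small regulator lists. The members and lists were chosen with earlier results of these data known, and wording matches of 3 lists (translation factors, defensins, autophagy) were corrected after values were seen. Ratios of low counts have exact 95% intervals, which like the floor of 3 counts cover counting error only. Library shares used exact two-sided permutation tests (scipy 1.17.1). The fit was tested on simulated data. Alternatives were other scalings, DESeq2 1.42.0, other count filters, thinned counts, other thresholds, a replicate block, 2 groups only, and leaving out each library.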

Additional observations from a re-analysis of the deposited data

Results flagged for a closer look

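Among 110 groups of 4 library values checked, 6 held a value whose gap to the nearest other value was too large a part of the group's range by Dixon's 95% limit. Chance alone gives about 1 such group in 20, so 6 of 110 is near the chance rate. The value for Col-0 replicate 2 was 0.814 CPM for DWF1, a single count, with the others at 0. Likewise the value for Col-0 replicate 4 was 1.29 CPM for ESE3 and that for Col-0 replicate 3 was 1.61 CPM for TCH4, each with the others at 0. Where all other values are 0 the gap always fills the range, so these flags follow from counts near 0. For Hsp70b, Col-0 replicate 2 stood at 2733 CPM, with the other 3 at 2360 to 2381 CPM. For RAB18, replicate 3 of the double mutant, the shallowest library, stood at 28115 CPM, with the others at 20115 to 21193 CPM. For TCH4, replicate 2 of the double mutant stood at 28.6 CPM, with the others at 5.80 to 7.88 CPM. In all 5 genes the double mutant and Col-0 libraries did not overlap.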

How the results depend on the processing

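The counts of 1073 increased, 795 decreased, 1204 different from brm-3 and 779 different from dog1-4 depended mainly on the low-count filter, the fold threshold and the scaling. Requiring at least 10 counts in every library, which tests fewer genes, gave 393, 371, 446 and 208; no filter gave 1910 increased, 1832 against brm-3 and 1240 against dog1-4. Scaling by library totals gave 2715, 262, 2397 and 1186. Counting any fold gave 2335 and 2392, and testing against a 2-fold change (glmTreat) gave 451 and 355. Thinning to equal depth gave 504 against dog1-4. Leaving out 1 library gave 1045 to 1204, 787 to 889, 1159 to 1420 and 702 to 950. DESeq2 gave 1051, 791, 1172 and 723.

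Same-numbered libraries of Col-0 and the double mutant deviated from their group means with correlations of -0.001 to 0.055, so the replicate numbers pair nothing; with the replicate block the counts were 1063, 779, 1168 and 746.

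Of 286 named genes 10 changed sign, all under scaling by totals: PP2CA to 0.083, HAI2 to 0.012, GID1A to 0.33, AT1G77940 to 0.12, AT1G47970 to 0.29, MLS to 0.0335, TAG1 to 0.0022, EXLA1 to 0.0837, E2F1 to 0.12 and LFR to 0.12. Depth limited rare genes: 99 of those called higher never exceeded 3 counts in a Col-0 library.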

Other observations

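Of 50 tested cytochrome P450 genes 24 were lower and 10 higher, against 23.3% and 22.8% of all tested genes, with a median log2 change of -0.37 (0.20, with 14 lower and 18 higher, when libraries were scaled by totals). CYP76C7 fell by 2.72 ± 0.13 and CYP71B37 by 3.08 ± 0.22, while CYP71B6 rose by 3.41 ± 0.28. Of 24 autophagy genes 11 were lower and 3 higher, with a median of -0.25 (0.32, with 2 lower and 9 higher, under scaling by totals), and ATG8H, which encodes a membrane anchor of autophagosomes, fell by 1.49 ± 0.12. Of 20 defensin and lipid transfer protein genes 10 were higher and 7 lower, and LCR67, the most abundant transcript of Col-0 seeds at a mean of 69347 CPM, changed by -0.64 ± 0.13.

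Of 37 ethylene and ERF genes 15 (40.5%) were lower and 8 (21.6%) higher, against 23.3% and 22.8% of all tested genes. Under scaling by totals 5 were lower and 18 higher. RAP2.4 stood at 2.54 ± 0.21 and RAP2.10 at -1.89 ± 0.11. Among 12 genes of glucosinolate, camalexin and tryptophan metabolism 6 (50.0%) were lower and 4 (33.3%) higher, against the same shares of all tested genes. Under scaling by totals 3 were lower and 4 higher. NSP2, which steers the breakdown of glucosinolates in seeds, fell from a mean of 3033 CPM to 968 CPM, by 1.65 ± 0.13 on the log2 scale, with -0.97 in brm-3 and -0.46 in dog1-4. The beta subunits of tryptophan synthase moved apart, TSB2 by -1.90 ± 0.11 and TSB1 by 0.46 ± 0.12.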
